A study of Homo sapiens with 12 samples.

Results

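Fibronectin, 5 laminin chains and 4 integrin subunits were followed in C4-2, a human prostate cancer cell line that grows without androgen. The 10 genes were taken by symbol from the table of 20308 genes, and all 10 were found: FN1, LAMA3, LAMA5, LAMB1, LAMB3, LAMC1, ITGA2, ITGA6, ITGB1 and ITGB4. The series compared cells that overexpress ALKBH5 (oeALKBH5), an enzyme that removes N6-methyladenosine from RNA, with cells that carry an empty vector (NC). Each group gave 3 input libraries of total RNA depleted of ribosomal RNA, which are used here, and 3 libraries enriched for methylated RNA, which are not used here. The labels give no vector type, promoter, clone or culture for a replicate, and list no treatment other than the overexpression. Whether the 3 replicates of a group came from separate cultures is not said, so the p-values speak for the variation among these libraries alone, and it may be technical.

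Laminins are secreted trimers of an alpha, a beta and a gamma chain and form the sheet-like core of basement membranes. Fibronectin is a secreted dimer that cells assemble into fibrils. Integrins are transmembrane dimers of an alpha and a beta subunit that bind these proteins outside the cell and link them to the actin or keratin cytoskeleton inside. In the normal prostate the basal epithelial layer rests on the basement membrane and carries the integrin of ITGA6 and ITGB4, which prostate cancers often lose together with laminin-332, a trimer that holds the LAMA3 and LAMB3 chains.

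Levels are given in FPKM, a unit that divides sequenced fragments by transcript length and by library size, so that genes can be compared per length. The library sums ran from 511333 to 512996 FPKM in oeALKBH5 and from 514140 to 524905 FPKM in NC. Absolute depth is unknown, and depth relative to NC replicate 1, estimated from low genes, ran from 0.783 to 1.07 in oeALKBH5 and from 1 to 1.13 in NC. ALKBH5 itself stood at 80.3, 74.3 and 72.5 FPKM in oeALKBH5, against 64.9, 61.1 and 58.2 FPKM in NC, and did not pass the test over all genes (limma adjusted p = 0.114). It is not known how reads from the introduced copy entered this value. Differences are oeALKBH5 minus NC on the log2(FPKM + 1) scale, where the pseudocount makes the change of a low gene look smaller than it is. A gene was called when its limma p, adjusted by Benjamini-Hochberg over the 12757 genes whose mean reached 0.5 FPKM, was under 0.05.

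Fibronectin rose in oeALKBH5 cells to 1.85 times the NC mean and LAMA3, the alpha chain of laminin-332, rose to 1.58 times the NC mean. The call of FN1 held under all 13 alternative settings run, and that of LAMA3 under 5 of them. None of the other laminin chains or integrin subunits among the 10 passed the test. All 10 passed the filter on low values, 2 were called higher and none lower, where 3.02% of all tested genes were called higher and 2.43% lower. The difference was above 0 in all 10 genes, with a median of 0.32, whereas it was above 0 in 52.3% of all tested genes, with a median of 0.02. The 10 genes were chosen with earlier results of these data known, so comparing their counts and signs with all tested genes is no independent test. LAMB3 and LAMC1 reached -0.17 and -0.01 at the lowest when 1 library was left out. The 3 oeALKBH5 libraries lay above all 3 NC libraries for 3 of the 10 genes, FN1, LAMA3 and ITGA6. That pattern held for 15.1% of all tested genes and the reverse pattern for 13%. No gene of the 10 had all oeALKBH5 libraries below all NC libraries. In these cultures more cells that make a transcript and more of that transcript per cell cannot be told apart.

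**Figure D1:**
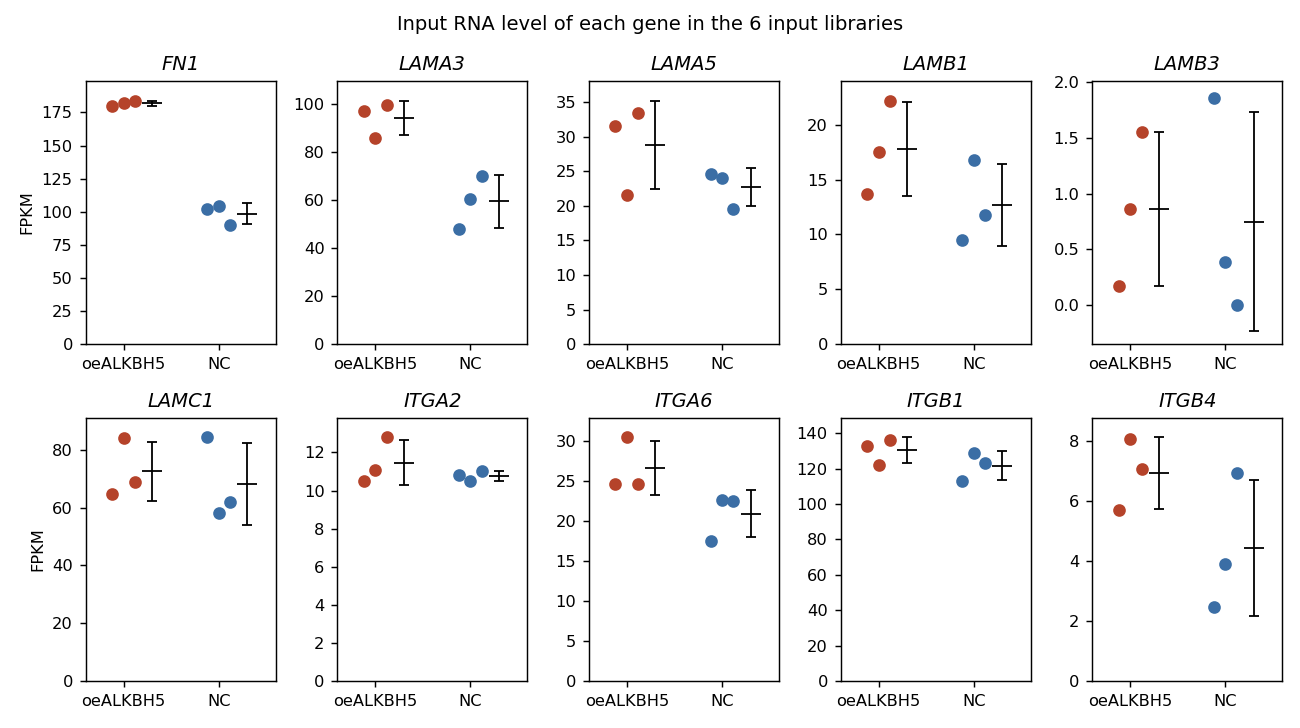
FPKM of each of the 10 genes in the 3 oeALKBH5 and the 3 NC input libraries, 1 point per library, with the mean and SD to the right of the points (n = 3 each); the vertical axes differ between panels. FN1 sits between 180 and 184 FPKM in oeALKBH5 and between 89.8 and 104 FPKM in NC, and LAMA3 and ITGA6 also show no overlap between the groups.

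**Figure D2:**
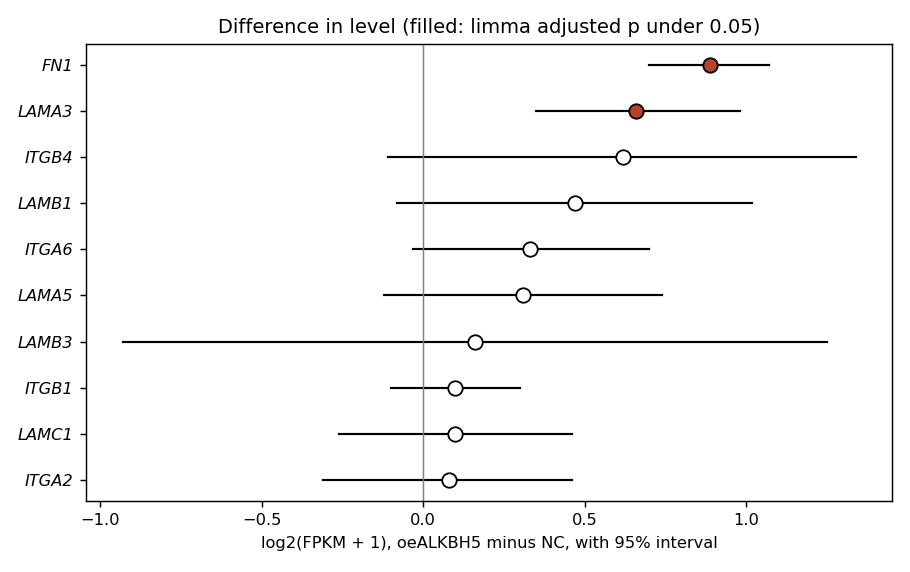
Difference in log2(FPKM + 1), oeALKBH5 minus NC, for each of the 10 genes with its 95% interval from limma; filled points have an adjusted p under 0.05. The 95% intervals of FN1 and LAMA3 lie above 0 and those of the other 8 genes include 0.

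FN1 encodes fibronectin, which is bound by several integrins. Its level was 180, 182 and 184 FPKM in oeALKBH5 libraries, against 102, 104 and 89.8 FPKM in NC libraries. The oeALKBH5 libraries lay close together and the groups were far apart, at 182 ± 1.9 FPKM in oeALKBH5 and 98.4 ± 7.55 FPKM in NC (mean ± SD, n = 3 each). The difference was 0.89 (SE 0.08, 95% interval 0.70 to 1.07, limma adjusted p = 0.000863). By p, FN1 ranked 36 of the 12757 tested genes, and by size of rise 548. It was called under all 13 alternative settings run, with differences from 0.82 to 0.92. FN1 was the highest of the 10 genes in oeALKBH5, and in NC it stood second to ITGB1, with no overlap of their libraries in either group.

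LAMA3 encodes the alpha3 chain, which anchors epithelial cells to the basement membrane. It measured 97.1, 86.2 and 99.9 FPKM in oeALKBH5 libraries, against 48.2, 60.7 and 70.2 FPKM in NC libraries. The lowest oeALKBH5 library stood above the highest NC library, and the NC libraries spread more widely, with 94.4 ± 7.23 FPKM in oeALKBH5 and 59.7 ± 11 FPKM in NC. The difference was 0.66 (SE 0.14, 95% interval 0.35 to 0.98, limma adjusted p = 0.0323), and LAMA3 ranked 454 by p. This call rested on each of 5 libraries: the adjusted p was 0.0854, 0.0567 and 0.101 when oeALKBH5 replicate 1, 2 or 3 was left out, and 0.0674 and 0.083 when NC replicate 1 or 2 was. Without NC replicate 3, the highest NC library, the difference was 0.79 and remained called. With no filter on low values the adjusted p was 0.0867, and without an intensity trend in the variance it was 0.104, and over all 13 alternatives it ran from 0.0286 to 0.104.

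The start regions of FN1 and LAMA3 are shown because these are the 2 genes of the 10 that were called. Each window holds the 250 bases before the RefSeq start site and the 50 after it (build GRCh38.p14), read 5′ to 3′ on the gene's strand. LAMA3 has alternative start sites, and the table used lists 1 of them. The FN1 window lies at chr2:215436019-215436318 on the minus strand and LAMA3 at chr18:23872770-23873069 on the plus strand. Capitals mark matches, on either strand, to 5 motifs: the TATA motif TATAAA, the GC box GGGCGG, the cyclic AMP response element TGACGTCA, the AP-1 motif TGANTCA and the core of the hypoxia response element ACGTG.
FN1: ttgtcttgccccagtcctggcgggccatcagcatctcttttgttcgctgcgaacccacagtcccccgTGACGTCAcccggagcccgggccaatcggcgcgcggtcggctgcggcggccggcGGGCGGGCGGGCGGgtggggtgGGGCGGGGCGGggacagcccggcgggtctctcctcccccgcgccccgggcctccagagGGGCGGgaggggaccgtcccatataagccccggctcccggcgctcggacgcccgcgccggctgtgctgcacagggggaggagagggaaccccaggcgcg
LAMA3: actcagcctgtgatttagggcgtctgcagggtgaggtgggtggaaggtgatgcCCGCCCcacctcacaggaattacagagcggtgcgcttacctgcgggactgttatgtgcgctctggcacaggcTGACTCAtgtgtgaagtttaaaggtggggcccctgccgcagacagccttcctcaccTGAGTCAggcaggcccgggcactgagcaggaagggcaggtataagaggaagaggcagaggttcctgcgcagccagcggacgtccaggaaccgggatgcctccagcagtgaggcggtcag
The FN1 window held 6 GC boxes, some of which overlap each other, and 1 cyclic AMP response element, at position -183 from the start site. The LAMA3 window held 1 GC box and 2 AP-1 motifs, at positions -125 and -69. Neither window held an exact TATAAA or ACGTG. Both held the run TATAAG, which differs from TATAAA in its last letter and was not counted as a match. Of 34796 distinct windows of 300 bases, 44.9% held the GC box, 1.84% the cyclic AMP response element, 7.73% the AP-1 motif, 11.6% TATAAA and 21.4% ACGTG. A match is a run of letters and not a measured binding site. The 2 windows differed in base composition, with 76.7% G and C in FN1 and 61.7% in LAMA3.

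The other alpha chain among the 10, LAMA5, is the alpha chain of laminin-511, a common laminin of adult basement membranes. It stood at 31.5, 21.6 and 33.5 FPKM in oeALKBH5, against 24.6, 24.1 and 19.6 FPKM in NC. Replicates 1 and 3 of oeALKBH5 stood above every NC library, and replicate 2 stood inside the NC range. The difference of 0.31 had a 95% interval of -0.12 to 0.74 (limma adjusted p = 0.373).

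LAMB1, the beta1 chain that pairs with LAMC1 in many laminins, measured 13.7, 17.5 and 22.2 FPKM in oeALKBH5, against 9.5, 16.8 and 11.8 FPKM in NC. The groups overlapped through NC replicate 2, and the difference was 0.47 (95% interval -0.08 to 1.02, limma adjusted p = 0.3). LAMC1, the gamma1 chain shared by most laminins, measured 64.8, 84.2 and 68.8 FPKM in oeALKBH5, against 84.4, 58.1 and 62.1 FPKM in NC. Its highest library was an NC one, and the difference of 0.10 had a 95% interval of -0.26 to 0.46 (limma adjusted p = 0.766). LAMC1 changed sign without oeALKBH5 replicate 2 or without NC replicate 2, each time at -0.01.

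LAMB3, the beta3 chain of laminin-332, was near the lower limit of measurement in both groups. It was listed at 0.168, 0.858 and 1.55 FPKM in oeALKBH5, against 1.86, 0.384 and 1.68e-06 FPKM in NC, the last of which is in effect 0. The widest interval of the 10 genes was that of LAMB3, -0.93 to 1.25 around a difference of 0.16 (limma adjusted p = 0.884). A fall or a rise within that range is therefore not excluded. LAMB3 was thus at or below 1.86 FPKM in every library, while LAMA3, with which it pairs, was at 48.2 FPKM or more.

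Among the integrins, ITGB1 encodes the beta1 subunit, which pairs with many alpha subunits. It measured 133, 122 and 136 FPKM in oeALKBH5, against 113, 129 and 123 FPKM in NC. The groups overlapped, and the interval was the second narrowest of the 10 genes, -0.10 to 0.30 around a difference of 0.10 (limma adjusted p = 0.554). ITGA2, which forms the collagen receptor alpha2beta1 with ITGB1, measured 10.5, 11.1 and 12.8 FPKM in oeALKBH5, against 10.8, 10.5 and 11 FPKM in NC. Its NC libraries agreed within 0.205 FPKM (SD), and the difference was 0.08 (95% interval -0.31 to 0.46, limma adjusted p = 0.835).

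ITGA6 encodes the alpha6 subunit, a laminin receptor with either ITGB1 or ITGB4. It measured 24.6, 30.5 and 24.7 FPKM in oeALKBH5, against 17.5, 22.7 and 22.5 FPKM in NC. No library of one group entered the range of the other, yet the difference of 0.33 did not pass the test (95% interval -0.03 to 0.70, limma adjusted p = 0.265). ITGB4 encodes the beta4 subunit, which binds laminin-332 in hemidesmosomes and connects to keratin filaments. Its values were 5.69, 8.07 and 7.06 FPKM in oeALKBH5, against 2.47, 3.9 and 6.94 FPKM in NC. NC replicate 3 stood within the oeALKBH5 range, and the difference of 0.62 had a 95% interval of -0.11 to 1.34 (limma adjusted p = 0.298). Without NC replicate 1 the difference was 0.34 and without NC replicate 3 it was 0.93, neither of them called.

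**Figure D3:**
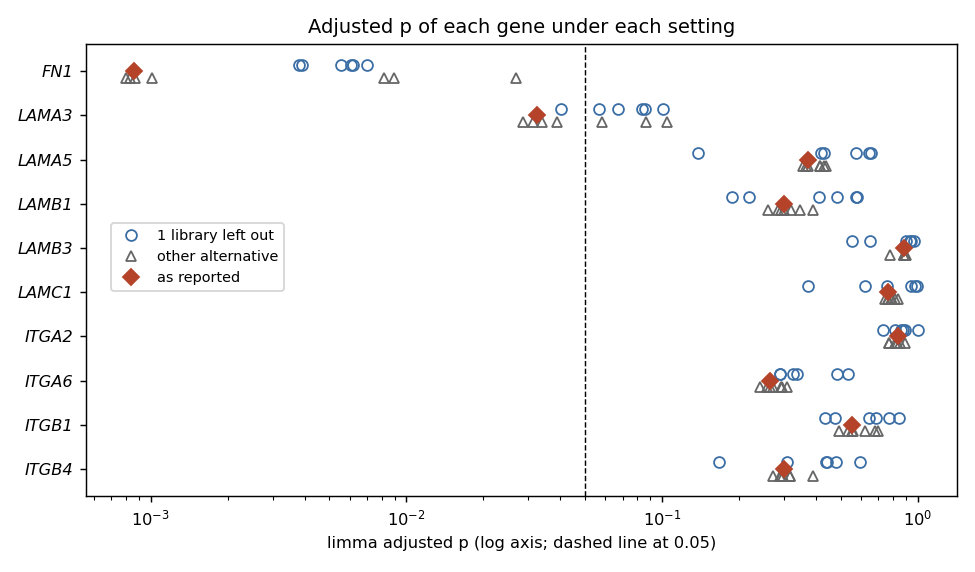
Limma adjusted p, on a log axis, of each of the 10 genes as reported (diamonds), with 1 library left out (circles) and under the other alternatives (triangles); the dashed line is at 0.05. FN1 stays left of the line throughout, LAMA3 falls on both sides of it, and the other 8 genes stay to its right.

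In order of mean FPKM, the oeALKBH5 libraries ran FN1 182, ITGB1 130, LAMA3 94.4, LAMC1 72.6, LAMA5 28.9, ITGA6 26.6, LAMB1 17.8, ITGA2 11.4, ITGB4 6.94 and LAMB3 0.859. Of these neighbours, LAMA5 and ITGA6 overlapped. In NC the order ran ITGB1 122, FN1 98.4, LAMC1 68.2, LAMA3 59.7, LAMA5 22.8, ITGA6 20.9, LAMB1 12.7, ITGA2 10.7, ITGB4 4.44 and LAMB3 0.75. There LAMC1 and LAMA3, LAMA5 and ITGA6, and LAMB1 and ITGA2 overlapped, so those neighbours had no fixed order. FN1 stood above ITGB1 in oeALKBH5 and below it in NC. LAMA3 stood above LAMC1 in every oeALKBH5 library, and in NC the 2 overlapped. Summed over the 10 genes, the level was 562 to 590 FPKM in oeALKBH5 libraries and 414 to 430 FPKM in NC libraries, and FN1 was the largest single contributor in oeALKBH5.

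Ratios of chains that pair in one molecule were compared per library, since a scaling of the whole library cancels in them apart from the pseudocount. Of 6 ratios, none reached an exact two-sided permutation p under 0.2, where 0.1 is the smallest p that 3 libraries against 3 can give, and all 6 had p of at least 0.72 after adjustment over the 6. On the log2(FPKM + 1) scale, ITGA6 over ITGB1 averaged -2.26 ± 0.25 in oeALKBH5 and -2.49 ± 0.11 in NC (SD, n = 3 each, exact permutation p = 0.2). ITGA6 over ITGB4 averaged 1.80 ± 0.13 in oeALKBH5 and 2.09 ± 0.46 in NC (exact permutation p = 0.4). ITGA2 over ITGB1 differed by -0.02 (exact permutation p = 0.8), the smallest difference of the 6. For the laminin pairs the difference was 0.21 for LAMA5 over LAMC1 (exact permutation p = 0.6), 0.37 for LAMB1 over LAMC1 (exact permutation p = 0.4) and 0.50 for LAMA3 over LAMB3 (exact permutation p = 0.5). The last ratio leaned on the low LAMB3 values and was -0.05 with a pseudocount of 0.1. None of these 6 pairs is thereby shown to keep a fixed ratio, because the test could not pass 0.05 at this number of libraries.

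The remaining genes of the pathway were read from 6 lists. Over all tested genes, 3.02% were called higher and 2.43% lower. Of the 7 other laminin chains, 4 were tested and none was called, with a median difference of 0.17. LAMB2, the beta2 chain and the highest of them, stood at 40.1, 47 and 31.1 FPKM in oeALKBH5, against 37.3, 28.3 and 26.8 FPKM in NC (limma adjusted p = 0.32). Of the 22 other integrin subunits, 12 were tested and none was called, with a median difference of 0.15. The highest of them, ITGAV, a subunit of receptors for fibronectin and vitronectin, stood at 43.7, 35.3 and 34 FPKM in oeALKBH5, against 41.3, 34.6 and 42.9 FPKM in NC (limma adjusted p = 0.812). ITGA5, the alpha subunit of the main fibronectin receptor, named after its values were seen, averaged 16.7 ± 4.53 FPKM in oeALKBH5 and 12.9 ± 0.903 FPKM in NC (limma adjusted p = 0.438).

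**Figure D4:**
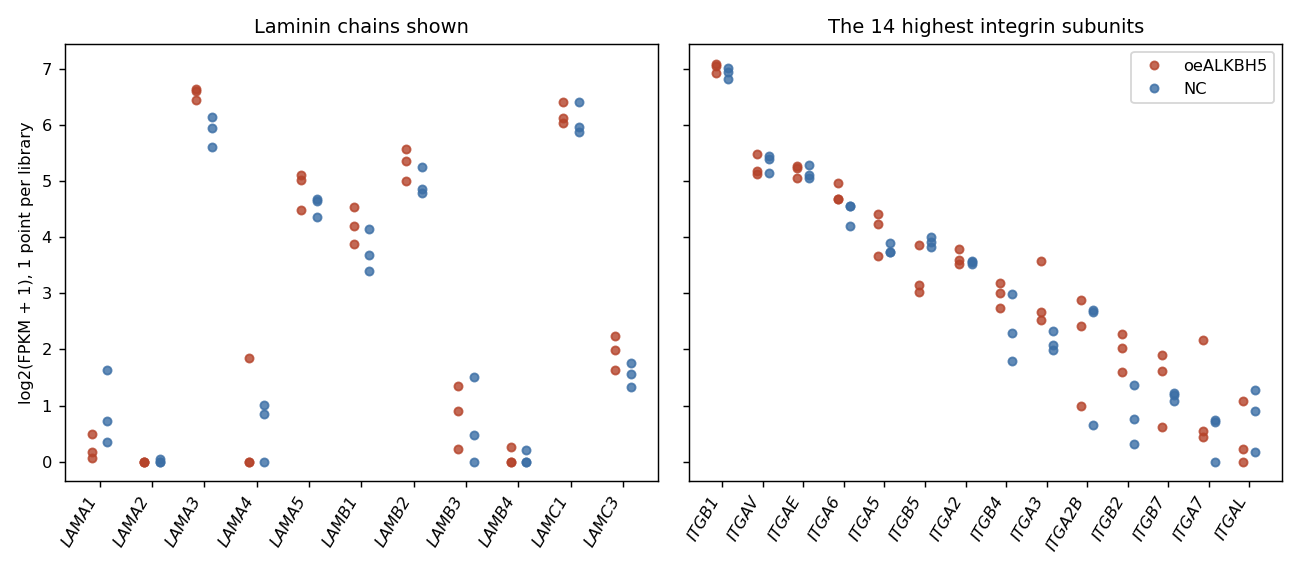
Level, as log2(FPKM + 1), of laminin chains (left) and of the 14 integrin subunits with the highest mean (right) in each input library, with oeALKBH5 left of NC for each gene. LAMA3 stands near LAMC1, whereas LAMB3 lies at or below 1.86 FPKM in every library, and ITGB1 lies above every other integrin subunit.

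Among 20 other basement membrane and matrix genes, 9 were tested and none was called, with a median difference of -0.10. THBS1, which encodes the integrin ligand thrombospondin-1, was the highest, at 251, 267 and 276 FPKM in oeALKBH5, against 230, 189 and 176 FPKM in NC. Its groups did not overlap and its difference of 0.42 narrowly missed the test (limma adjusted p = 0.0507). It was called without NC replicate 1 (limma adjusted p = 0.0177) and with a filter of 1 FPKM (limma adjusted p = 0.0493), and over all 13 alternatives its adjusted p ran from 0.0177 to 0.18.

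All 25 genes of the integrin-linked adhesion machinery, which include membrane tetraspanins, were tested. Of them 3 were called higher and none lower, with a median difference of 0.08. All oeALKBH5 libraries lay above all NC libraries for 8 of the 25 genes and below them for 3. Over all tested genes these shares were 15.1% and 13%. The 3 below were ACTN1, FERMT1 and FERMT2, named after their values were seen. Their differences were -0.37, -0.61 and -0.24, none of them called (limma adjusted p = 0.104, 0.19 and 0.461). ZYX, which encodes zyxin, an actin-linked protein of focal adhesions, measured 20.3, 16.5 and 20.5 FPKM in oeALKBH5, against 8.26, 7.69 and 9.99 FPKM in NC (difference 1.06, SE 0.18, limma adjusted p = 0.0133). PTK2, which encodes focal adhesion kinase, measured 82.1, 77.8 and 77.2 FPKM in oeALKBH5, against 52.7, 56.9 and 48.3 FPKM in NC (difference 0.58, SE 0.10, limma adjusted p = 0.0143). In both genes every oeALKBH5 library stood above every NC library. TNS1, which encodes tensin-1, a linker of integrin tails to actin, measured 10.2, 12.9 and 11.8 FPKM in oeALKBH5, against 6.25, 5.24 and 6.97 FPKM in NC (difference 0.82, SE 0.20, limma adjusted p = 0.0495). TNS1 was called in 3 of the 13 alternatives, and leaving out any single library ended its call. Its adjusted p was then 0.0764, 0.127 and 0.134 for oeALKBH5 replicates 1, 2 and 3 and 0.115, 0.13 and 0.109 for NC replicates 1, 2 and 3. ZYX lost its call without oeALKBH5 replicate 3 (limma adjusted p = 0.057), and PTK2 without oeALKBH5 replicate 3 (limma adjusted p = 0.0504) or NC replicate 3 (limma adjusted p = 0.0679). CD9, a tetraspanin that associates with integrins and the highest gene of this list, averaged 392 ± 19.4 FPKM in oeALKBH5 and 340 ± 7.67 FPKM in NC and was not called (limma adjusted p = 0.0956).

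Of 10 matrix receptors other than integrins, 1 rose and none fell, with a median difference of -0.15. The one that rose, SDC4, encodes syndecan-4, a heparan sulfate proteoglycan that binds fibronectin beside integrins. It measured 72.9, 81.8 and 76.2 FPKM in oeALKBH5, against 49.8, 41 and 46.6 FPKM in NC, with no overlap (difference 0.74, SE 0.11, limma adjusted p = 0.00866). RPSA, which serves both as a ribosomal protein and as a laminin-binding protein, averaged 1010.5 ± 21 FPKM in oeALKBH5 and 1011 ± 25.2 FPKM in NC, with a 95% interval of the difference of -0.11 to 0.10 (limma adjusted p = 0.995). Processed copies of RPSA elsewhere in the genome could share its reads, so its level is uncertain.

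Of 20 matrix proteases and inhibitors, 13 were tested, 1 rose and none fell, with a median difference of 0.38. All oeALKBH5 libraries lay above all NC libraries for 6 of the 13 and below them for none. These shares were 15.1% and 13% over all tested genes. The lists were chosen with earlier results of these data known, so this comparison is no independent test. TIMP2, an inhibitor of matrix metalloproteinases, measured 25.4, 26.4 and 30.5 FPKM in oeALKBH5, against 13.3, 15 and 12.8 FPKM in NC (difference 0.95, SE 0.15, limma adjusted p = 0.00999). Its 2 groups were separate and the call held under all 13 alternatives. TMPRSS2, an androgen-regulated serine protease and the highest gene of the list, averaged 173 ± 12.4 FPKM in oeALKBH5 and 138 ± 13.9 FPKM in NC and was not called (limma adjusted p = 0.0904).

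**Figure D5:**
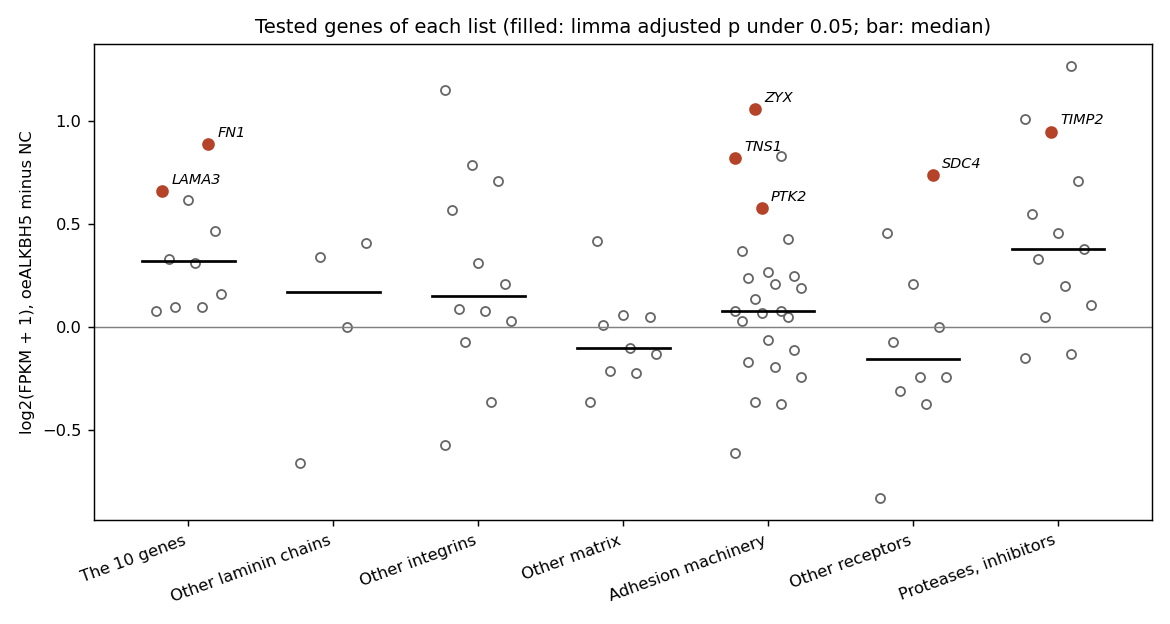
Difference in log2(FPKM + 1), oeALKBH5 minus NC, of every tested gene of the 10 genes and of the 6 other lists, 1 point per gene, with the median of each list as a bar; filled points are called by limma. The called genes are FN1, LAMA3, ZYX, TNS1, PTK2, SDC4 and TIMP2, all above 0.

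Markers of cell types were read beside these results. The 8 luminal markers summed to 2030 to 2180 FPKM in oeALKBH5 libraries and to 2030 to 2050 FPKM in NC libraries, and KLK3, which encodes prostate-specific antigen, averaged 943 ± 52.8 FPKM in oeALKBH5 and 1003.5 ± 14.8 FPKM in NC. One luminal marker, the keratin KRT8, rose, at 220, 212 and 238 FPKM in oeALKBH5, against 128, 138 and 145 FPKM in NC (limma adjusted p = 0.00242). The 4 basal markers, of the layer that carries laminin-332 and ITGB4, summed to 4.44 to 7.66 FPKM in oeALKBH5 and to 1.58 to 5.36 FPKM in NC. Of the 3 basal markers tested, KRT15 rose, at 3.58, 6.67 and 1.51 FPKM in oeALKBH5, against 0.145, 0.411 and 1.29e-05 FPKM in NC (limma adjusted p = 0.038). The keratins KRT5 and KRT14, the other basal markers tested, were not called, with differences of -0.42 (limma adjusted p = 0.685) and -0.03 (limma adjusted p = 0.984), and the median over the 3 was -0.03. TP63, the defining basal transcription factor, was too low to be tested, listed at 0 in all 3 oeALKBH5 libraries and at up to 0.657 FPKM in NC. The KRT15 call survived the removal of oeALKBH5 replicate 3 and of no other library: the adjusted p was 0.095 and 0.0967 without oeALKBH5 replicate 1 or 2, and 0.0978, 0.0782 and 0.133 without NC replicate 1, 2 or 3. The 7 stromal markers, of cells that secrete fibronectin, summed to 4.68 to 28.1 FPKM in oeALKBH5 and to 4.05 to 13.9 FPKM in NC. None of the 3 stromal markers tested was called, and DCN and LUM were listed at 0 in every library. COL1A1 stood at 2.17, 27.6 and 8.08 FPKM in oeALKBH5, against 12.2, 4.79 and 3.43 FPKM in NC, with overlap of the groups. The 3 endothelial markers found summed to 0.444 to 0.551 FPKM in oeALKBH5 and to 0.683 to 1.12 FPKM in NC, and the 4 immune markers to 1.31 to 1.79 FPKM in oeALKBH5 and to 0.521 to 3.36 FPKM in NC, with none called in either list. The part of any of these markers in the rises of FN1 and LAMA3 was not tested.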

How the data were processed

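RNA of C4-2 cells was measured in 12 libraries, of which the 6 inputs were analysed here. Directional libraries of ribosomal RNA-depleted RNA were sequenced in pairs, per the labels' protocols, and cutadapt 1.9.3, HISAT2 2.0.4, Cuffdiff, Cufflinks and the build hg19 are named in the submitters' processing notes, with no role or order. The deposited table names no unit, and its values were read as FPKM made by the authors, from those tools and from the values. It holds no counts, so no interval that needs depth was computed. Peaks of methylated RNA were not placed in the 10 genes, since no annotation of their build was used here.

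Of 20308 genes, 19434 had a symbol. The 12757 genes whose mean reached 0.5 FPKM were tested on log2(FPKM + 1) by limma 3.58.1 (R 4.3.3), which let the prior variance follow the mean level, and p-values were adjusted over all of them by Benjamini-Hochberg. Ratios and figures were made with scipy 1.17.1, numpy 2.4.6, pandas 2.3.3 and matplotlib 3.10.9 under Python 3.11.15. The alternatives were a pseudocount of 0.1, no filter or a filter of 1 FPKM, upper quartile or median scaling, a replicate block, no variance trend, and leaving out each library. The fit was first tested on simulated data with known answers. Same-numbered libraries of the 2 groups did not deviate together.

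The 10 genes and the lists were chosen with earlier results of these data known. The named genes are the 10, the called genes of each list up to 4 per direction, the highest gene of each list, the cell type markers and ALKBH5; others are marked. Not every gene of the lists is reported here.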

Additional observations from a re-analysis of the deposited data

How the results depend on the processing

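The 10 genes kept the sign of their difference under the pseudocount, scaling, filter, block and variance alternatives that gave a value, and FN1 was called in each of the 13 alternatives run. The number of the 10 that were called fell to 1, FN1 alone, with no filter on low values, with no variance trend and with the replicate block, and ran from 1 to 2 when 1 library was left out. The whole table gave 421 calls with no filter, 270 with no variance trend and 344 with the replicate block, against 695 as reported, and from 232 (without NC replicate 3) to 436 (without oeALKBH5 replicate 1) when 1 library was left out. Under the replicate block the adjusted p of LAMA3 was 0.0579 and that of TNS1 0.114. Deviations of same-numbered libraries from their group means correlated at -0.02, -0.02 and 0.03. These values show no shared deviation over the genes, but they cannot tell whether same-numbered libraries were prepared together. Calls in the 6 other lists numbered 5 as reported, 2 with no variance trend, where PTK2 (adjusted p = 0.07), SDC4 (0.0511) and TNS1 (0.0553) were lost, and from 2 to 5 with 1 library left out.

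Signs changed only in uncalled genes. With 1 library left out, LAMB3 ran from -0.17 to 0.59, LAMC1 from -0.01 to 0.26 and RPSA from -0.02 to 0.02, and RPSA was 0.01 with upper quartile scaling. Of the 6 ratios, LAMA3 over LAMB3 changed sign, to -0.07 without NC replicate 1 and to -0.05 with a pseudocount of 0.1, and ITGA2 over ITGB1 did, to 0.05 without oeALKBH5 replicate 1 and 0.03 without NC replicate 1. Of 311 single-gene values under an alternative, 270 kept their sign and their side of the threshold, 30 lost a call, 2 gained one and 9 changed sign. LAMB3 has no value with a filter of 1 FPKM, which it does not pass. The causes of these shifts were not tested. Peak alternatives were not run, since no peak was placed in a gene. Low genes such as LAMB3 limit what can be detected, since the depth behind a value is unknown.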
